A study of Caenorhabditis elegans with 12 samples.

Results

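The 9 genes described here build the eggshell of Caenorhabditis elegans or act at the oocyte surface when the egg is activated: cbd-1, perm-2, perm-4, egg-1, egg-2, egg-3, chs-1, cpg-1 and cpg-2. They were taken by name from a count table of 46891 genes, and all 9 had a row. The table comes from polyadenylated RNA of whole worms of the wild-type strain N2 after RNA interference (RNAi) against y54g2a.18, which is homologous to BCAP31, a gene for a membrane protein of the endoplasmic reticulum, and after a control RNAi. Each of these groups had 3 libraries. The series asked how y54g2a.18 and rpoa-49, the homologue of an RNA polymerase I subunit gene, influence ageing, but the table of the rpoa-49 experiment held 0 of the 9 names and was not used further. Both groups share the N2 background, and the sources give neither age nor stage. The labels do not say whether the 3 libraries of a group stem from different cultures, and p-values therefore measure only how far these samples spread, which may be technical.

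An oocyte of C. elegans carries a vitelline layer before fertilization and adds further layers within minutes of sperm entry. Chitin is spun at the plasma membrane, and cortical granules then release chondroitin proteoglycans that form the inner layer. The same step sets off the change from oocyte to embryo, for which proteins at the oocyte cortex must be handed over in order, and worms without an intact shell lay embryos that are permeable and fail to develop. The messages for these proteins are made in the germline of the adult hermaphrodite and stored in oocytes. In RNA of whole worms, fewer oocytes and less message per oocyte cannot be told apart.

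RNAi libraries held 37336711, 38313344 and 30103422 counts and control libraries 38919451, 39492584 and 34561881. The targeted gene Y54G2A.18 stood at 190, 128 and 90.2 CPM (counts scaled to library size, with trimmed-mean factors) in RNAi libraries, against 391, 358 and 409 CPM in control libraries, with a log2 fold change of -1.51 and an adjusted p of 0.0073 in edgeR's quasi-likelihood test. Ribosomal RNA made up 0.0965, 1.34 and 2.06% of the counts in RNAi libraries, against 1.06, 1.69 and 0.219% in control libraries. Long transcripts also differed between libraries of the same group, as described below for chs-1 and cbd-1.

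None of the eggshell genes was called. Of the 9 genes, 8 had enough counts to be tested, and with each of edgeR, DESeq2 and limma-voom 0 of them were called at an adjusted p of 0.05. The share of all 14290 tested genes called by edgeR was 8.98%, made up of 5.01% lower and 3.97% higher in RNAi libraries. Before adjustment 2 members, egg-1 and cpg-2, had a p under 0.05 with each of the 3 tools, against 23.3% of all tested genes in edgeR. All 8 tested members had a log2 fold change below 0, from -0.65 to -0.19 with a median of -0.35, while the median of all tested genes was 0.02 and 48.1% of them were below 0. Summed over the 9 members, the level was 3622, 3268 and 2985 CPM in RNAi libraries, against 4289, 4104 and 4210 CPM in control libraries. Each RNAi sum lay below each control sum, and cpg-2, perm-4 and perm-2 made up most of it. The 3 RNAi libraries lay below all 3 control libraries for 3 of the 8 tested members (egg-1, egg-3 and cpg-2), as they did for 14.6% of all tested genes. The RNAi libraries lay above the control libraries for 0 of the 8 members and for 15.8% of all tested genes, so the groups did not overlap for 3 members and for 30.4% of all tested genes.

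**Figure D1:**
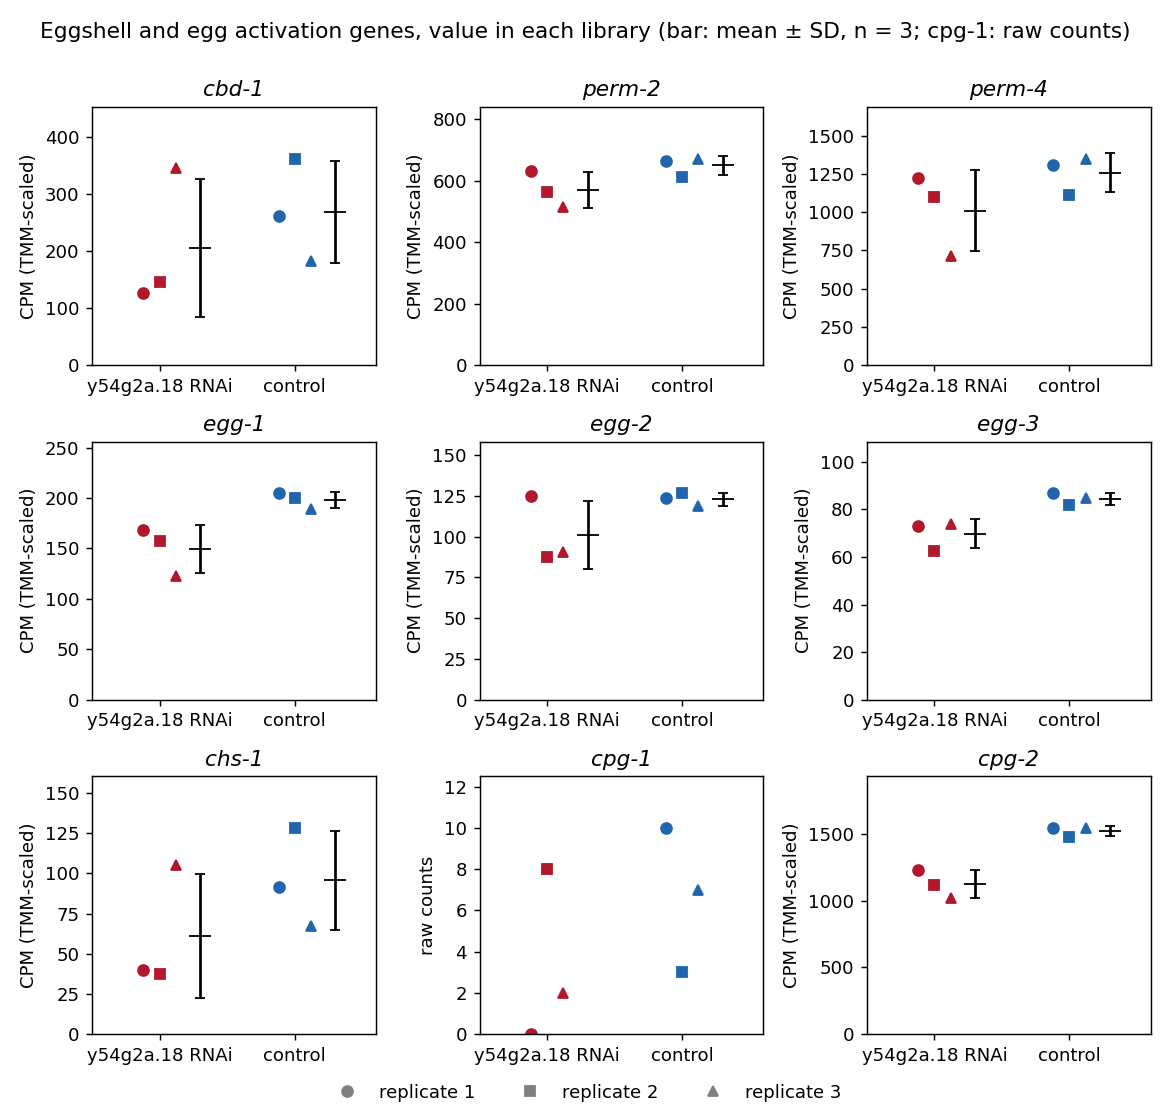
Level of each of the 9 genes in each library, as CPM scaled by trimmed means (cpg-1 as raw counts), with y54g2a.18 RNAi libraries on the left and control libraries on the right; marker shapes give the replicate number and bars the mean ± SD of 3 libraries. The groups do not overlap for egg-1, egg-3 and cpg-2, while cbd-1 and chs-1 spread widely within both groups and cpg-1 reaches at most 10 counts.

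The vitelline layer genes come first. cbd-1 encodes a protein with chitin-binding domains that anchors this layer, and perm-2 and perm-4 encode secreted proteins of the same layer that the shell needs to become impermeable. cbd-1 had 126, 146 and 345 CPM in RNAi libraries and 262, 362 and 182 CPM in control libraries. The groups overlapped, since RNAi replicate 3 lay above control replicates 1 and 3. The log2 fold change of cbd-1 was -0.39 with a standard error of 0.40 and a 95% interval from -1.29 to 0.52 (adjusted p = 0.617, edgeR). The level of perm-2 was 633, 564 and 514 CPM in RNAi libraries, against 665, 613 and 671 CPM in control libraries. RNAi replicate 1 lay above control replicate 2, and the other two RNAi libraries lay below every control library. perm-4 was at 1225, 1098 and 712 CPM in RNAi libraries and 1312, 1115 and 1350 CPM in control libraries. Its RNAi replicate 3 was far below the rest, and RNAi replicate 1 lay within the control range. The log2 fold changes were -0.19 for perm-2 (95% interval -0.50 to 0.12) and -0.32 for perm-4 (-0.80 to 0.17), with adjusted p of 0.46 and 0.429 in edgeR. Without RNAi replicate 3 the log2 fold change of perm-4 was -0.12.

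perm-2 and perm-4 are direct neighbours in the WBcel235 annotation, with 0 annotated genes between them, and are transcribed away from each other. The ratio of their counts does not depend on the scaling of a library. perm-4 had 1.93, 1.95 and 1.39 counts for each count of perm-2 in RNAi libraries, against 1.97, 1.82 and 2.01 in control libraries, so that RNAi replicate 3 stood apart from the other 5 libraries.

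The egg genes act at the oocyte surface and cortex. egg-1 and egg-2 encode a pair of closely related membrane proteins with LDL receptor repeats that oocytes need for fertilization. egg-1 had 168, 158 and 122 CPM in RNAi libraries, against 205, 200.5 and 189.5 CPM in control libraries. Every RNAi library was below every control library. Its log2 fold change was -0.41 (standard error 0.15, 95% interval -0.75 to -0.07), and the unadjusted p of 0.0249 became 0.142 after adjustment over all tested genes in edgeR. egg-2 stood at 125, 87.2 and 90.8 CPM in RNAi libraries and at 124, 126 and 118.7 CPM in control libraries. RNAi replicate 1 lay within the control range and the other two RNAi libraries lay below it. Its log2 fold change was -0.28 (standard error 0.16, adjusted p = 0.344, edgeR), and without RNAi replicate 1 it was -0.47 with an adjusted p of 0.0305. No source states how reads that fit both genes were counted, so the split between egg-1 and egg-2 is uncertain. Summed into 1 row, the pair had a log2 fold change of -0.36 (adjusted p = 0.189, edgeR). egg-1 had 1.35, 1.81 and 1.35 counts for each count of egg-2 in RNAi libraries, against 1.66, 1.59 and 1.6 in control libraries.

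egg-3 encodes a protein related to tyrosine phosphatases that holds the chitin synthase CHS-1 and the kinase MBK-2 at the oocyte cortex until the egg is activated. Its level was 72.9, 62.7 and 73.7 CPM in RNAi libraries, against 86.8, 81.9 and 85.0 CPM in control libraries. All 3 RNAi libraries were below all 3 control libraries. The log2 fold change of egg-3 was -0.28 with a standard error of 0.13 and a 95% interval from -0.57 to 0.01 (unadjusted p = 0.0602, adjusted p = 0.239, edgeR).

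chs-1 encodes the chitin synthase of the eggshell, the enzyme without which the chitin layer is not made. It had 39.8, 37.6 and 105 CPM in RNAi libraries and 91.6, 128 and 67.0 CPM in control libraries. RNAi replicates 1 and 2 lay below every control library, while RNAi replicate 3 lay above control replicates 1 and 3. The log2 fold change, -0.65, was the most negative of the 8 tested members, with a standard error of 0.41 and a 95% interval from -1.59 to 0.29 (adjusted p = 0.399, edgeR). Without RNAi replicate 3 it was -1.31 with an adjusted p of 0.0273, and over the 17 alternatives it ran from -1.31 to -0.38.

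cpg-1 and cpg-2 encode chondroitin proteoglycans that also bind chitin and form the inner layer of the shell. cpg-2 was at 1233, 1114 and 1022 CPM in RNAi libraries and 1543, 1476 and 1546 CPM in control libraries. The groups did not overlap, and the gap between them was wider than the range of either group. The log2 fold change of cpg-2 was -0.44 with a standard error of 0.14 and a 95% interval from -0.76 to -0.12. Its unadjusted p was 0.0129 and its adjusted p 0.0967 in edgeR, the smallest of the members. The adjusted p was below 0.05 in 2 of 17 alternatives, with the ribosomal RNA share as a covariate (0.0296) and without RNAi replicate 1 (0.0423), and at most 0.365 in the others.

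The row of cpg-1 was nearly empty. It held 0, 8 and 2 counts in RNAi libraries, against 10, 3 and 7 in control libraries, and did not pass the filter on low counts, so no fold change was drawn from it. The count of 0 in RNAi replicate 1 allows up to 3 counts, or 0.0819 CPM. cpg-1 is the only member with 2 transcripts in RefSeq, and the other 8 have 1 each. Among protein-coding genes with 2 or more RefSeq transcripts, 2239 of 4744 (47.2%) had 0 counts in all 6 libraries and 63.9% had at most 30, the total of cpg-1. Among those with 1 transcript, 1012 of 15042 (6.73%) had 0 counts and 18.4% had at most 30. The bound of 30 counts was set by the total of cpg-1, and the part of transcript number in its low count was not tested.

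**Figure D2:**
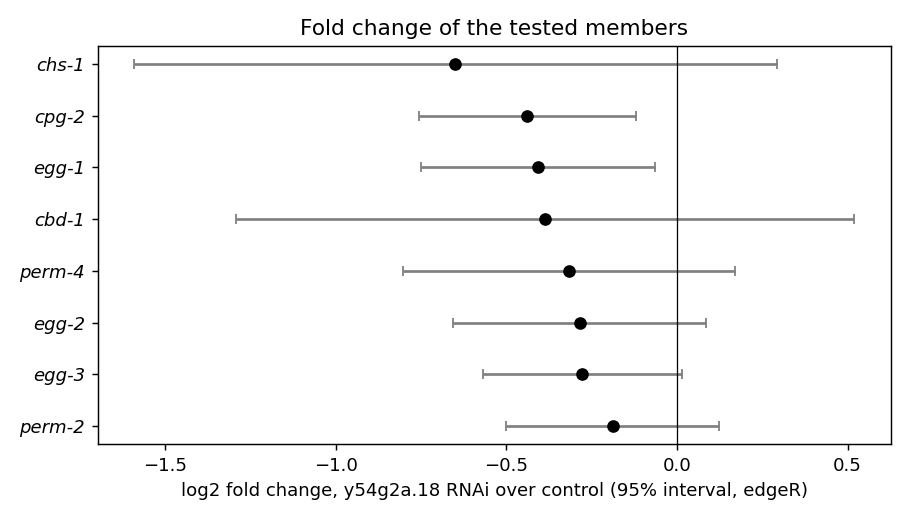
Log2 fold change of y54g2a.18 RNAi over control for the 8 tested members, sorted by size, with 95% intervals from edgeR. All lie below 0, from -0.65 for chs-1 to -0.19 for perm-2, and the intervals of egg-1 and cpg-2 do not include 0. The intervals are not adjusted for the number of genes tested, and the adjusted p of egg-1 and cpg-2 were 0.142 and 0.0967 in edgeR.

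Levels of different genes were compared per length of exons. In CPM per kilobase, perm-4 stood at 914 in RNAi and 1138 in control libraries, perm-2 at 775 and 883, and cpg-2 at 652 and 883. These 3 genes stood at percentiles 98.5 to 98.8 of the tested protein-coding genes with 1 RefSeq transcript in control libraries. egg-1 followed at 83.3 in RNAi and 110 in control libraries, egg-2 at 57.2 and 69.6, cbd-1 at 48.7 and 63.7, egg-3 at 38.9 and 47.1, and chs-1 at 14.2 and 22.3 CPM per kilobase. The order of the 8 genes was the same in both groups except that cpg-2 and perm-2 were level in control libraries. The SDs of the neighbours egg-2, cbd-1 and egg-3 make their order uncertain, since cbd-1 had an SD of 121 CPM around a mean of 206 CPM in RNAi libraries and 90.1 CPM around 269 CPM in control libraries.

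The members differed in how widely they spread across the libraries. chs-1 and cbd-1 differed between libraries of 1 group by 2.81- and 2.74-fold in RNAi and by 1.92- and 1.99-fold in control libraries. The other 6 tested members differed by at most 1.72-fold in RNAi and 1.21-fold in control libraries. These 6 did not all have the same library order in either group. chs-1 and cbd-1 were both highest in control replicate 2 and RNAi replicate 3, lowest of the controls in control replicate 3, and low in RNAi replicates 1 and 2. Centred on each gene's own mean, their log2 profiles over the 6 libraries differed from each other by a root mean square of 0.17, and by 0.53 to 0.83 from those of the other 6 tested members. The closest pair of all was egg-1 and cpg-2, at 0.09.

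chs-1 and cbd-1 are also the longest members, with 4293 and 4221 bases of exons in the annotation, against 736 to 1795 bases for the other 6 tested genes. Other long genes were also highest in RNAi replicate 3 and control replicate 2, and their order of all 6 libraries within groups was that of cbd-1, while chs-1 was lowest in RNAi replicate 2. The 274 other tested genes of 4 kb or more with 1 RefSeq transcript had a median centred log2 CPM of -0.94, -0.37 and 0.86 in RNAi replicates 1, 2 and 3, against 0.14, 0.69 and -0.39 in control replicates 1, 2 and 3. For the 5233 genes of 1 to 2 kb, the length of 5 of the other members, these medians lay between -0.04 and 0.10. The share of ribosomal RNA had the same library order in both groups as the long genes. Each library was then corrected for exonic length, an alternative chosen after the data were seen. The standard error was 0.17 for chs-1 and 0.13 for cbd-1, in place of 0.41 and 0.40. For egg-1, egg-2, egg-3 and cpg-2 it rose, to 0.14 to 0.19 from 0.13 to 0.16. For perm-2 and perm-4 it fell, to 0.11 and 0.17 from 0.14 and 0.21. With this correction chs-1 had a log2 fold change of -0.56 (unadjusted p = 0.00902, adjusted p = 0.0534) and cbd-1 of -0.30 (adjusted p = 0.162), and 0 members were called.

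Set against the median of the other genes of their own length class, chs-1 stood at log2 differences of 0.11, -0.54 and -0.28 in RNAi libraries, against 0.23, 0.17 and 0.31 in control libraries. The groups did not overlap, although RNAi replicate 1 came close to the control libraries. For cbd-1 these differences were 0.14, -0.22 and -0.20 in RNAi libraries and 0.12, 0.04 and 0.13 in control libraries, and the groups overlapped. On this measure the groups of perm-2, egg-1, egg-3 and cpg-2 did not overlap either, while those of perm-4 and egg-2 did. How many of all tested genes separate in this way was not computed.

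**Figure D3:**
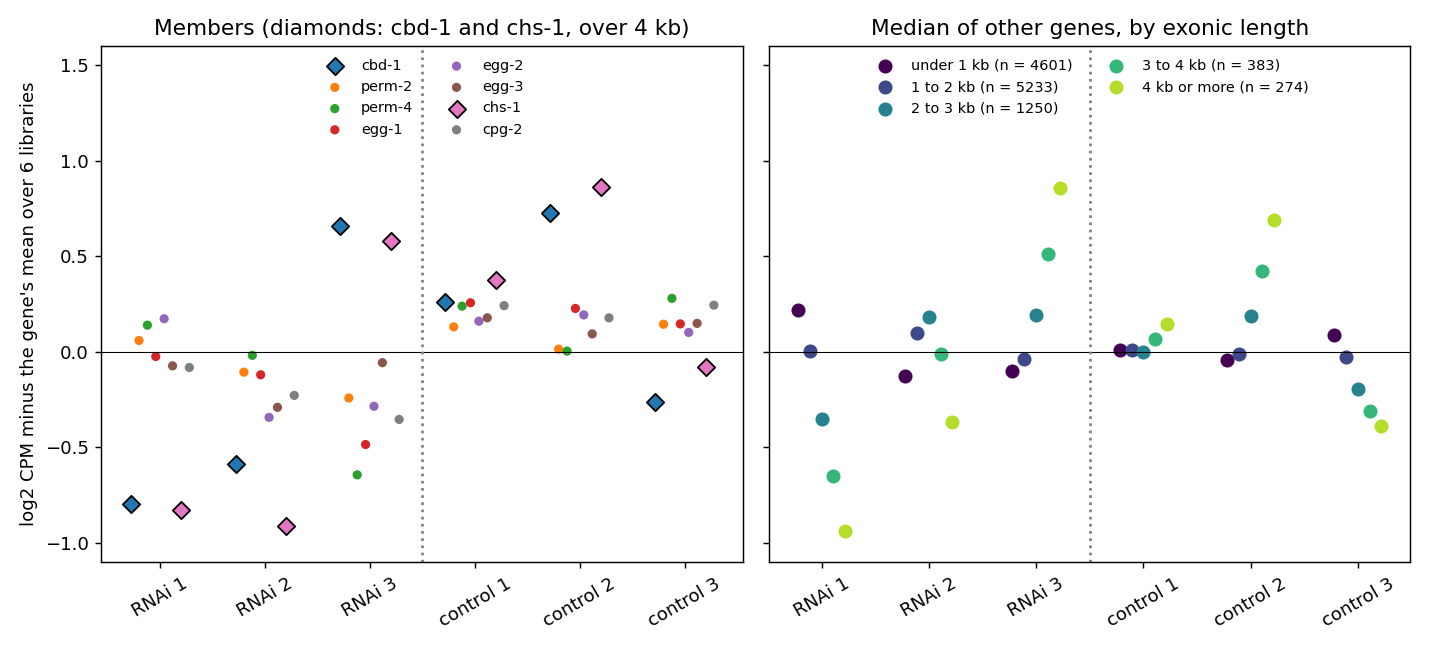
Log2 CPM minus the gene's own mean over the 6 libraries, for the 8 tested members (left, diamonds for chs-1 and cbd-1) and as medians of other tested genes with 1 RefSeq transcript by exonic length (right), with RNAi libraries left of the dotted line and control libraries right of it. In both panels the genes over 4 kb are highest in RNAi replicate 3 and control replicate 2; chs-1 is lowest in RNAi replicate 2, and cbd-1 and the median of the long genes are lowest in RNAi replicate 1.

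Ratios of counts between members within a library were computed for 7 pairs chosen after the values were seen, and they carry no test. cpg-2 had 1.95, 1.98 and 1.99 counts for each count of perm-2 in RNAi libraries, against 2.32, 2.41 and 2.3 in control libraries. Every RNAi ratio was below every control ratio, and the spread within a group was small. chs-1 had 0.316, 0.258 and 0.306 counts for each count of cbd-1 in RNAi libraries and 0.35, 0.354 and 0.368 in control libraries, again without overlap. chs-1 and cbd-1 are of like length, and their ratio varied 1.43-fold over all 6 libraries. cpg-2 over chs-1, a short and a long gene, varied 3.2-fold, and the part of length in this was not tested. The ratio of cpg-2 over egg-3 did not overlap either, with 17.77 the highest in RNAi and 17.78 the lowest in control libraries. The ratios of egg-1 over egg-2, perm-4 over perm-2, cpg-2 over chs-1 and cbd-1 over perm-2 overlapped. The share of other gene pairs that separate was not computed.

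4 of the members overlap another gene by a few exonic bases in the WBcel235 annotation, and no source states whether the counting used strand. The overlap was 25 bases between perm-2 and C44B12.6, 42 between egg-1 and B0244.9, 21 between egg-3 and lurp-1 and 5 between chs-1 and T25G3.3. chs-1 and T25G3.3 lie on the same strand, so counting by strand would not separate them, while the other pairs lie on opposite strands. C44B12.6 held at most 4 counts in a library. B0244.9 was at 8.55, 5.88 and 6.04 CPM in RNAi libraries and 4.38, 5.03 and 4.68 CPM in control libraries, low beside egg-1. lurp-1 was at 17.2 ± 2.48 CPM in RNAi and 19.2 ± 0.546 CPM in control libraries (SD, n = 3). T25G3.3 was at 163 ± 9.64 CPM in RNAi and 148 ± 5.90 CPM in control libraries, above the means of chs-1, 61.0 and 95.6 CPM.

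The genes whose profile was most like the mean profile of the 8 tested members were F12F6.7, cnnm-4, T07F10.3, pgl-2 and fbf-2. Likeness was the root mean square difference of centred log2 CPM over the 6 libraries, from 0.04 to 0.05 for these 5 among 7003 other genes with at least 10 CPM. F12F6.7 had 66.6, 60.5 and 67.5 CPM in RNAi libraries and 85.3, 86.5 and 75.9 CPM in control libraries. For all 5 the RNAi libraries lay below the control libraries, which the choice by likeness largely sets, and their adjusted p ran from 0.0889 for pgl-2 to 0.235 for cnnm-4 in edgeR. Of the members, egg-3 was nearest to the mean profile, at 0.10, and chs-1 farthest from it, at 0.52. No member was thus as close to the mean as these 5 genes, and the mean blends unlike profiles. In RNAi replicate 3 the centred log2 CPM was 0.58 for chs-1 and 0.66 for cbd-1, against -0.64 for perm-4 and -0.48 for egg-1.

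Other genes of the eggshell were taken from a list of 14 names, 12 of which had a row and 11 enough counts. In edgeR and limma-voom 0 of the 11 were called and in DESeq2 1, and 2 had an unadjusted p under 0.05 in edgeR. 9 of the 11 had a log2 fold change below 0, with a median of -0.26, beside 48.1% of all tested genes below 0. perm-3 and spe-11 lay above 0, at 0.21 and 0.58, and spe-11 also stands in the list of sperm genes below. The RNAi libraries lay below the control libraries for 3 of the 11 and above them for 0. Over all tested genes these shares were 14.6% and 15.8%. The genes named next were chosen after their values were seen. cpg-3, a further chondroitin proteoglycan of the egg, had 839, 455 and 423 CPM in RNAi libraries, against 1086, 940 and 1143 CPM in control libraries, with a log2 fold change of -0.88 (adjusted p = 0.0783, edgeR). Each RNAi library was below each control library. egg-4 and egg-5 encode a pair of phosphatase-like proteins that bind MBK-2 together with EGG-3. egg-4 was at 51.1 ± 5.95 CPM in RNAi and 68.4 ± 3.98 CPM in control libraries, and egg-5 at 38.4 ± 0.893 and 46.02 ± 1.26 CPM (SD, n = 3; adjusted p = 0.112 and 0.266, edgeR). For both the groups did not overlap. mbk-2 itself, a gene with 14 RefSeq transcripts, held 0 counts in all 6 libraries.

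Genes that supply the sugars of the shell were measured as well. Over all tested genes 8.98% were called in edgeR and 48.1% had a log2 fold change below 0. Of 9 genes of chondroitin synthesis 7 were tested, all 7 had a log2 fold change below 0 (median -0.37), and 1 was called in edgeR. This was sqv-4, which encodes the dehydrogenase that makes UDP-glucuronic acid. sqv-4 fell to 125, 123 and 122 CPM in RNAi libraries, against 167, 165 and 172 CPM in control libraries, with a log2 fold change of -0.44 and an adjusted p of 0.0472. Of 5 genes of the chitin precursor pathway 3 were tested and 1 was called, gfat-2, which encodes the first enzyme of hexosamine synthesis. gfat-2 fell to 138, 155 and 151 CPM in RNAi libraries, against 206.5, 222 and 196.5 CPM in control libraries, with a log2 fold change of -0.49 and an adjusted p of 0.0427 in edgeR. Each of these calls was lost in 8 of 17 alternatives, among them the omission of each control library in turn (highest adjusted p 0.249 for sqv-4 and 0.21 for gfat-2). The genes left out, sqv-5, mig-22 and gfat-1, held 0 counts, while chs-2, the chitin synthase of the pharynx, held at most 3 counts in a library, and all 4 have several RefSeq transcripts.

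**Figure D4:**
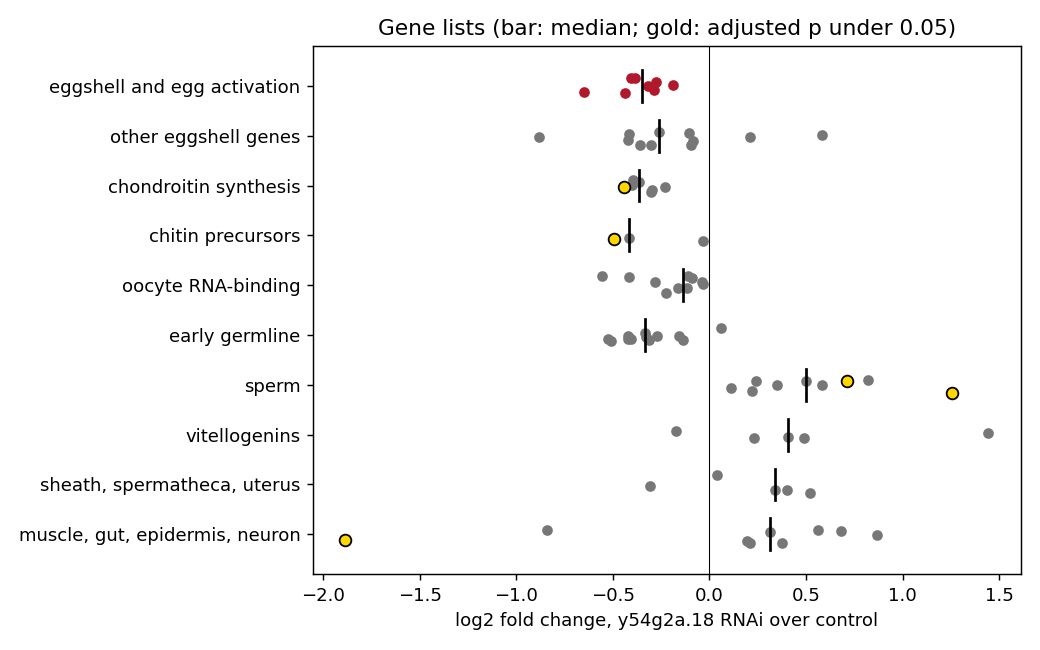
Log2 fold change of y54g2a.18 RNAi over control for each tested gene of the eggshell members (red) and of 9 other lists (grey), with the list's median as a bar and genes with an adjusted p under 0.05 in gold. The median of the members is -0.35, and those of the sperm, vitellogenin, sheath and somatic lists are above 0.

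Levels of germline markers were set beside those of the eggshell genes. The counts below stand beside 8.98% of all tested genes called in edgeR, 23.3% with an unadjusted p under 0.05 and 48.1% below 0. Of 14 oocyte genes, which encode mostly maternal RNA-binding proteins, 10 were tested, 0 were called by any of the 3 tools, the unadjusted p of 1 was under 0.05 in edgeR, and all 10 were below 0 with a median of -0.14. Their summed level was 1098 to 1332 CPM in RNAi and 1232 to 1509.7 CPM in control libraries, and puf-3, mex-1 and lin-41 held 0 counts, of which mex-1 and lin-41 have several RefSeq transcripts. Of 16 genes of the mitotic and meiotic germline 12 were tested, 0 were called by any of the 3 tools, 3 had an unadjusted p under 0.05 in edgeR, and 11 were below 0 with a median of -0.33. Their sum was 462 to 572 CPM in RNAi and 583 to 749.9 CPM in control libraries, and him-3, rad-51, pgl-3 and nos-3, all with several RefSeq transcripts, held 0 counts. The part of the amount of germline in the values of the eggshell genes was not tested. Sperm genes stood on the other side of 0. Of 14 with a row 9 were tested, 0 had a log2 fold change below 0, the median was 0.50, and 2 were called in edgeR. These were spe-12, which spermatids need for activation, at 3.12 ± 0.82 CPM in RNAi and 1.31 ± 0.20 CPM in control libraries, and gsp-3, which encodes a phosphatase of sperm, at 22.2 ± 2.43 and 13.6 ± 0.52 CPM (SD, n = 3; adjusted p = 0.0245 and 0.0304, edgeR). Of 17 alternatives, 5 ended the call of spe-12 and 4 that of gsp-3 (adjusted p at most 0.127 and 0.183), among them the omission of each control library in turn. The summed sperm level was 66.7 to 102 CPM in RNAi and 52.3 to 60.02 CPM in control libraries.

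The fold changes of the members kept their sign in every alternative that was run. The log2 fold change of cpg-2 ran from -0.51 to -0.37, that of egg-1 from -0.50 to -0.28, that of egg-3 from -0.32 to -0.21 and that of perm-2 from -0.27 to -0.12. Those of chs-1 and cbd-1 ran from -1.31 to -0.38 and from -0.98 to -0.11.

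**Figure D5:**
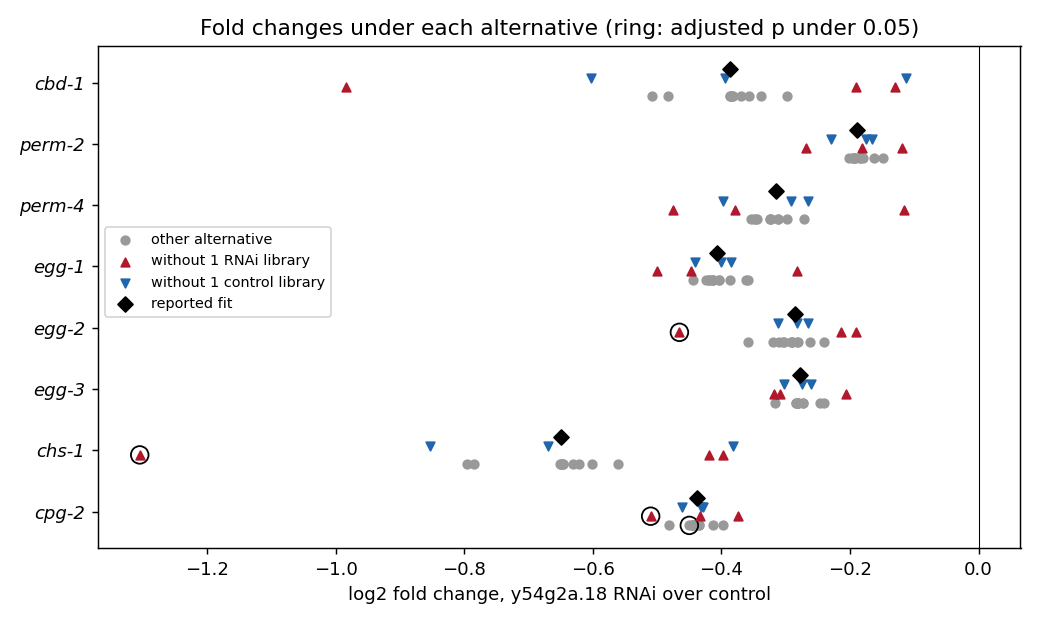
Log2 fold change of y54g2a.18 RNAi over control for the 8 tested members in the reported fit (black diamonds), without 1 RNAi library (red), without 1 control library (blue) and under the other alternatives (grey); a ring marks an adjusted p under 0.05. All values lie below 0, and the 4 rings are those of egg-2 and cpg-2 without RNAi replicate 1, of chs-1 without RNAi replicate 3 and of cpg-2 with the ribosomal RNA share as a covariate.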

How the data were processed

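The authors deposited raw counts per gene, with no normalization, and the submitters' processing notes list featureCounts 1.28.1, HISAT2 2.2.1, DESeq2 1.16.1 and FastQC 0.11.9 with no role. No source used here gives the genome build, annotation or strand setting. Of 46903 entries, 12 with dates in place of gene names were dropped (up to 0.0247% of a library). Of counts from 1 to 20, 71.5% were even, so single counts may not be independent; floors stand for counting error alone. All 6 y54g2a.18 libraries entered each test (R 4.3.3): filterByExpr (minimum count 10, total 15), trimmed-mean scaling, and edgeR 4.0.16 quasi-likelihood with group as the only term, Benjamini-Hochberg adjusted over all tested genes. Standard errors are the log2 fold change over the root of F. DESeq2 1.42.0 and limma 3.58.1 were alternatives. Some of the fits were also run on counts simulated without differences by gene length, which cannot show how they handle such differences. Libraries of a group correlated at 0.965 to 0.99 (log CPM) with chi-square per degree of freedom of 24.5 to 186, so none was a duplicate. Exonic lengths come from Ensembl's WBcel235 annotation and transcript numbers from RefSeq (99.9% of names matched), and no coordinates are given. Members and lists were chosen with earlier results of these data known. The rule for named genes took all members, the targeted gene and called genes of other lists (up to 3 each). It also took the 5 genes with the most similar profile and genes overlapping a member. Outside it fall cpg-3, egg-4, egg-5, perm-3, spe-11, vit-2, ges-1, elt-2, vha-6 and genes named for low or 0 counts, picked with their values in view. The other table held 418 counts in all. gna-2 and spe-11 each stand in a pair of lists.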

Additional observations from a re-analysis of the deposited data

How the results depend on the processing

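The number of members called, 0, was 1 with the ribosomal RNA share as a covariate and 0 to 2 without one library. chs-1 was called without RNAi replicate 3, and egg-2 (log2 -0.47 there, -0.19 to -0.47 without one library) and cpg-2 without RNAi replicate 1; cpg-2 ran from -0.51 to -0.37 without one library, -0.45 with the ribosomal covariate, and chs-1 from -1.31 to -0.38. Over all genes 1283 were called, against 2214 with the covariate, 2204 with the length correction (chosen after seeing the data, as was keeping only genes with 1 RefSeq transcript) and 646 to 2097 without one library. Other eggshell genes, 0 called, had 1 without a filter, in DESeq2 and with the length correction, 2 with the covariate and 0 to 3 without one library. Chondroitin genes, 1 called, had 0 with upper-quartile scaling, no filter, limma-voom or the replicate block, 2 with the covariate, 3 with the length correction and 0 to 2 without one library. Chitin precursor genes, 1 called, had 0 with total counts, upper-quartile scaling, no filter or the replicate block and 0 to 2 without one library. Oocyte genes, 0 called, had 1 with the covariate or length correction and 0 to 1 without one library. Early germline genes, 0 called, had 1 with the covariate and 0 to 1 without one library. Sperm genes, 2 called, had 0 with the replicate block and 0 to 2 without one library. Vitellogenins had 1 with the length correction and 0 otherwise. Sheath genes had 0 to 2 without one library. Somatic markers, 1 called, had 2 with the covariate, 5 with the length correction and 1 to 3 without one library. The cause of these changes was not tested. Deviations of same-numbered libraries correlated at 0.0074, 0.0454 and -0.365, and not every library correlated best with its own number. The highest correlation, 0.403, was between RNAi replicate 3 and control replicate 2, the libraries in which long genes were highest. Whether same-numbered libraries share a culture or batch was not tested. The replicate block called 0 members and 955 genes in all.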

Other observations

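Vitellogenins, the yolk proteins that oocytes take up, spread far more widely within groups than the short eggshell genes. vit-2 stood at 553, 1234 and 5519 CPM in RNAi libraries, against 2525, 4075 and 1633 CPM in control libraries, with the same library order as chs-1 and cbd-1 in the controls and the same highest library in the RNAi group. Of 5 tested vitellogenins, with 4870 to 5088 bases of exons, 0 were called by edgeR, DESeq2 and limma-voom alike, and in edgeR no unadjusted p was under 0.05 (0 of 5). Of 5 tested genes of the gonadal sheath, spermatheca and uterus 0 were called by any of these tools, 0 had an unadjusted p under 0.05 in edgeR, and their sum was 30.7 to 32.4 CPM in RNAi and 26.4 to 29.2 CPM in control libraries.

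Of 9 tested somatic markers 7 had a log2 fold change above 0, with a median of 0.31, and 1 was called in edgeR. Over all tested genes 48.1% were below 0 and 8.98% were called. Of the intestinal genes, ges-1 had 41.1, 46.4 and 45.2 CPM in RNAi libraries and 35.0, 35.7 and 36.0 CPM in control libraries, and elt-2 had 31.2, 39.97 and 33.1 CPM in RNAi libraries and 29.9, 30.7 and 29.6 CPM in control libraries. For both the RNAi libraries lay above the control libraries, as for 15.8% of all tested genes, and neither was called (adjusted p = 0.205 and 0.468, edgeR). A further intestinal gene, vha-6, had 47.2, 121 and 118 CPM in RNAi libraries and 69.9, 85.2 and 65.4 CPM in control libraries. Its groups overlapped, with RNAi replicate 1 the lowest of the 6 libraries (adjusted p = 0.539, edgeR). The called gene dpy-7, a cuticle collagen gene of the epidermis, fell to 56.3, 107 and 50.6 CPM in RNAi libraries, against 271, 230 and 290 CPM in control libraries (log2 fold change -1.88, adjusted p = 0.00447, called in all 17 alternatives). col-19, a collagen gene of the adult cuticle, and the neuronal gene rgef-1 held 0 counts in all 6 libraries; col-19 has 1 RefSeq transcript and rgef-1 has 2, and of protein-coding genes with 2 or more 47.2% were at 0.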
